A study of Homo sapiens with 4 samples.

Results

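The genes that encode subunits of the oxidative phosphorylation complexes were examined in NCI-H1048 cells, an established line from human small cell lung cancer of the tuft cell-like subtype. Members were chosen by gene symbol (the NDUFA, NDUFB, NDUFC, NDUFS and NDUFV genes, UQCR genes and CYC1, SDHA to SDHD, the COX4 to COX8 genes, ATP5 genes and the mitochondrial MT-ND, MT-CO, MT-ATP and MT-CYB genes). Of 160 rows that matched, 56 pseudogene rows were left out, and the remaining 104 rows gave 99 gene symbols of 35979 in all. Of these, 86 are encoded in the nucleus and 13 in the mitochondrial genome. The 4 libraries of poly(A)-selected RNA were COLCA2 gRNA 1 and COLCA2 gRNA 2, which are labelled COLCA2 knockout and were made with different guide RNAs, POU2F3 gRNA (labelled POU2F3 knockout) and the non-targeting gRNA control. The COLCA2 libraries are called guide 1 and guide 2 here, and runs of 4 values follow the order guide 1, guide 2, POU2F3 gRNA, control. Whether the cells were clones or pools and how long after delivery of the guides they were collected is not given in the sources used here.

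Oxidative phosphorylation is carried out in the inner mitochondrial membrane. Complex I (NADH dehydrogenase) and complex II (succinate dehydrogenase) pass electrons to ubiquinone, complex III passes them to cytochrome c and complex IV (cytochrome c oxidase) to oxygen, and the proton gradient built by complexes I, III and IV drives the ATP synthase, complex V. Complex II is wholly encoded in the nucleus, and the other complexes are built from subunits of both genomes, so their supply depends on transcripts made in separate compartments. POU2F3 is the transcription factor that defines tuft cells, and COLCA2 is a co-activator that works with it.

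The reads assigned to genes numbered between 21587741 and 29632382 per library. The deposited values are normalized counts, that is, reads divided by 1 factor per library. POU2F3 had normalized counts of 3677 and 2351 in guides 1 and 2 of COLCA2, 1449 in the POU2F3 gRNA library and 14602 in the control. COLCA2 had 3119, 3541, 1393 and 5585 in the same order, so the COLCA2 transcript was lower with the POU2F3 guide than with either of its own guides. A guide need not remove the transcript of its target, and protein was not measured. Of 13 tuft cell markers, 10 had more than 3 reads in every library and TRPM5 had at most 3 in every library. Their summed normalized count was 55588 in the control against 11876 to 17880 in the other libraries. That sum includes POU2F3 itself, and SOX9 was its largest member in every library (8463, 6645, 7566 and 17850). The size of the difference varied by gene, from IL17RB (1574, 1441, 1388 and 2193) to ALOX5 (1261, 1046, 506 and 6311). Neuroendocrine markers summed to between 237 and 351, with CHGA at or under 3 reads in every library, leukocyte markers to between 60.1 and 98.4 (CD3E at or under 3 reads) and endothelial markers to between 41.5 and 65.9. The 6 fibroblast markers summed to 1267 in the control and to between 1585 and 2076 in the other libraries. Most of that sum was COL1A1 (1186, 1008, 1002 and 1136), while COL3A1 (412, 363, 317 and 47.8), LUM (233, 201, 122.5 and 14.3) and PDGFRB (187, 120, 79.7 and 22.9) were several-fold lower in the control. The part of these genes in the results given here was not tested.

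Each library was compared with the control as a log2 ratio of normalized counts plus 1. Ratios of at least 25% higher or 20% lower (1 threshold, a log2 ratio of 0.32 in either direction) were counted, and for COLCA2 both guides had to pass. The control and POU2F3 gRNA are 1 library each, so the only spread between replicates is that of the COLCA2 guides (SD, n = 2), and all ratios to the control share that 1 library. Genes whose mean over the libraries was 20 or more were compared, which left 14940. They included all 13 mitochondrial members and 80 of the 86 nuclear members.

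Among the 13 mitochondrially encoded subunits, MT-ND5 and MT-ND6 were higher in all 3 libraries with a targeting guide than in the control, and the other 11 genes lay closer to it. They were the 2 of 13 at least 25% higher with both COLCA2 guides, against 17.1% of all genes, and with POU2F3 gRNA, against 22%. As a share, 2 of 13 is below each of these, so the count sets the mitochondrial group apart in neither comparison. In bulk RNA, a change in the share of some cells and in the RNA of each cell cannot be told apart. MT-ND5 and MT-ND6 encode core membrane subunits of complex I. They are neighbours on the mitochondrial genome on opposite strands: MT-ND5 spans chrM:12337-14148 on the plus strand and MT-ND6 spans chrM:14149-14673 on the minus strand (GRCh38, GENCODE release 29), so their 3′ ends abut. Both are single-exon genes. As background, MT-ND6 is the only protein gene of the light strand, its messenger is known to lack a stable poly(A) tail, and MT-ND5 and MT-ND6 transcripts are known to extend into each other's locus. The last 60 bases of each gene, 5′ to 3′ on its own strand, are shown because the reads of this pair meet there, with the final codon of the open reading frame in capitals.

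MT-ND5: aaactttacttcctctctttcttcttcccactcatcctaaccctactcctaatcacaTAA
MT-ND6: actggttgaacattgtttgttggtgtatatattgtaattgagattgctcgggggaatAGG

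The normalized count of MT-ND5 was 60148 for guide 1, 55475 for guide 2, 60204 for POU2F3 gRNA and 36410 for the control. The 3 libraries with a targeting guide lay close together and the control stood below them. The log2 ratio was 0.67 ± 0.08 (SD, n = 2 guides) for COLCA2 and 0.73 for POU2F3. With edgeR's quasi-likelihood test on the recovered reads, which takes its spread from the COLCA2 guides alone, the Benjamini-Hochberg adjusted p was 0.00277 for COLCA2 and 0.00392 for POU2F3.

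For MT-ND6 the normalized counts were 27326 and 25511 for guides 1 and 2, 25274 for POU2F3 gRNA and 13995 for the control. Again the control was the lowest of the 4 libraries. The log2 ratio was 0.92 ± 0.07 (SD, n = 2 guides) for COLCA2 and 0.85 for POU2F3, with adjusted p values of 0.000705 and 0.0019 in the same edgeR test. As a share of all reads, MT-ND6 took 0.107%, 0.1% and 0.102% in the libraries with targeting guides and 0.0576% in the control (exact 95% binomial interval 0.0567% to 0.0586%, counting error only). The ratio of MT-ND6 to MT-ND5 was 0.454 and 0.46 with the COLCA2 guides, 0.42 with POU2F3 gRNA and 0.384 in the control. Whether counting used the strand is not given in the sources used here. Without strand, reads over the shared end and over antisense transcripts cannot be assigned to 1 of the pair, so the values of these genes are uncertain with respect to each other.

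The other complex I genes of the mitochondrial genome lay closer to the control. MT-ND1 had normalized counts of 120950, 111029, 111949 and 99463, MT-ND2 had 98513, 86774, 87895 and 88001, and MT-ND3 had 20693, 19779, 18244 and 18661. MT-ND4, which is translated from 1 messenger together with MT-ND4L, had 172927, 150963, 147751 and 147041, and MT-ND4L had 17587, 16028, 18234 and 17214. In MT-ND2 and MT-ND4, guide 1 stood above the other 3 libraries. The next protein gene along from MT-ND6, MT-CYB, encodes cytochrome b of complex III and had 87157, 76418, 76530 and 71409.

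The core subunits of cytochrome c oxidase gave 216528, 200679, 214214 and 194820 for MT-CO1, 99751, 94696, 80279 and 82683 for MT-CO2, and 102153, 103587, 96185 and 95149 for MT-CO3. Of these, MT-CO2 was higher with both COLCA2 guides than in the other 2 libraries (log2 ratio 0.23 ± 0.05, SD, n = 2 guides; adjusted p = 0.083 by edgeR). The ATP synthase genes MT-ATP8 and MT-ATP6, which overlap on 1 messenger, had 30270, 22465, 24608 and 24345, and 87941, 72755, 72583 and 73858. In both, guide 1 was the highest library and guide 2 did not exceed the control. MT-ATP8 differed between the guides by 0.43 on the log2 scale.

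Over the 11 genes other than MT-ND5 and MT-ND6, log2 ratios ran from 0.03 to 0.31 with guide 1 (11 of 11 above 0). They ran from -0.12 to 0.20 with guide 2 (7 above 0) and from -0.04 to 0.17 with POU2F3 gRNA (7 above 0). Of all genes, 49.3%, 49.8% and 49.6% were above 0 in the same order. Guide 1 exceeded guide 2 in 10 of the 11, against 48.8% of all genes. For 4 of the 11 genes the guides lay on opposite sides of the control. The median over all 13 was 0.25 with guide 1, 0.08 with guide 2 and 0.02 with POU2F3 gRNA. All 13 genes together took 4.465% of the reads with guide 1 (exact 95% interval 4.457% to 4.473%), 4.08% with guide 2, 4.16% in the POU2F3 library and 3.96% in the control. Without MT-ND5 and MT-ND6 the shares were 4.12%, 3.762%, 3.81% and 3.757%, and the exact intervals of guide 2 (3.754% to 3.77%) and the control (3.75% to 3.765%) overlapped.

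**Figure D1:**
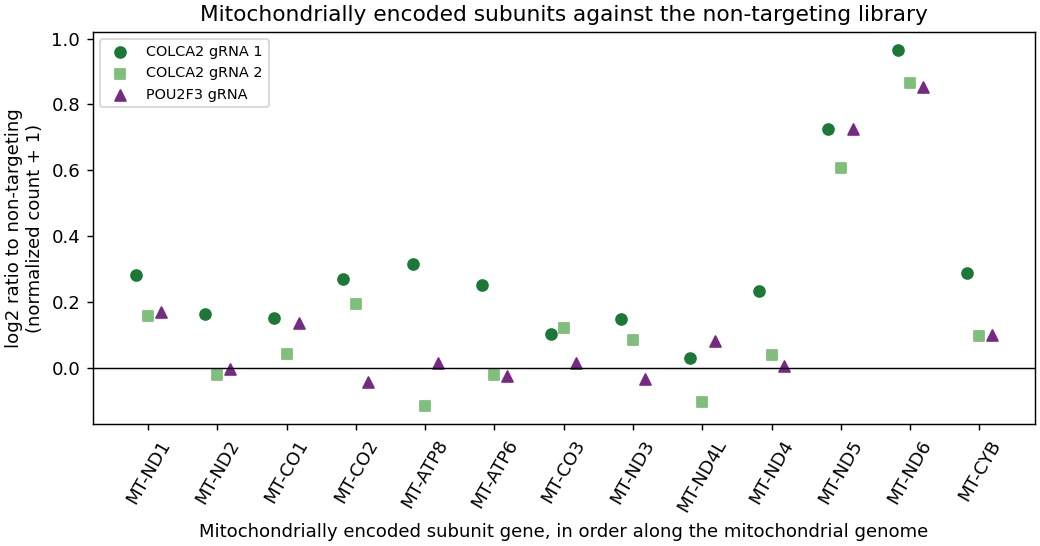
Log2 ratio of each mitochondrially encoded subunit gene to the non-targeting library (y axis) for COLCA2 gRNA 1, COLCA2 gRNA 2 and POU2F3 gRNA, with genes ordered along the mitochondrial genome (x axis) and 1 point per library. MT-ND5 and MT-ND6 lie between 0.61 and 0.97 in all 3 libraries, and the other 11 genes lie between -0.12 and 0.31.

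Nuclear copies of mitochondrial genes on chromosome 1 carried counts of their own. The count of MTATP6P1 was 49.2% of that of MT-ATP6, and those of MTCO1P12, MTND1P23 and MTND2P28 were 12.8%, 11.6% and 5.18% of those of MT-CO1, MT-ND1 and MT-ND2. These copies are near-identical to the mitochondrial genes, so reads could be split between them, and the levels of these 4 genes are uncertain.

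The 80 nuclear subunit genes lay mostly slightly above the control with both COLCA2 guides, and on either side of it with POU2F3 gRNA. The median log2 ratio was 0.19 with guide 1 and 0.14 with guide 2, 0.16 for the mean of the guides with an SD of 0.04 between the guide medians, and 0.01 with POU2F3 gRNA. Over all 14940 genes the medians lay between -0.01 and 0.00. With both COLCA2 guides, 65 of the 80 were above the control by any amount, against 41% of all genes, and 10 were below it, against 41.8%. POU2F3 gRNA was above the control in 42 of 80, against 49.6% of all genes, and below it in 38, against 50.4%. Among the 75 nuclear members with a mean of at least 1000, 64 were above the control with both guides, against 45.6% of the 5908 genes at that level. With all libraries set to equal totals, 53 of 80 were above the control with both guides, against 34%, and the COLCA2 median was 0.09, where that scaling put the median of all genes at -0.08.

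Few of these genes moved far. At least 25% higher with both COLCA2 guides were 5 of 80 nuclear members (COX5B, NDUFA10, NDUFA1, ATP5MD and UQCRB), against 17.1% of all genes, and at least 20% lower was 1 of 80, against 14.5%. With POU2F3 gRNA, SDHC was at least 25% higher, against 22% of all genes, and 2 of 80, UQCRHL among them, were at least 20% lower, against 18%. With both COLCA2 guides 1 of 80 was at least 2-fold lower, against 2.02% of all genes, and 0 members of either genome were 2-fold higher, against 5.79%. With POU2F3 gRNA 0 members were 2-fold lower, against 3.05%, or higher, against 6.73%. Scaling to equal totals left 0 nuclear members at least 25% higher for either target. It also put the median log2 ratio of all genes at -0.08 for COLCA2 and -0.04 for POU2F3. The share of all genes past the threshold under that scaling is not given here. With the edgeR test, 8 of 80 were called for COLCA2 (7 higher and 1 lower), against 18.9% of all genes, and 0 of 80 for POU2F3, against 12.4%. At an unadjusted p under 0.05, 26 were higher and 1 lower for COLCA2, against 17.9% and 14.8% of all genes, and 4 were higher and 0 lower for POU2F3, against 15.7% and 11%.

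**Figure D2:**
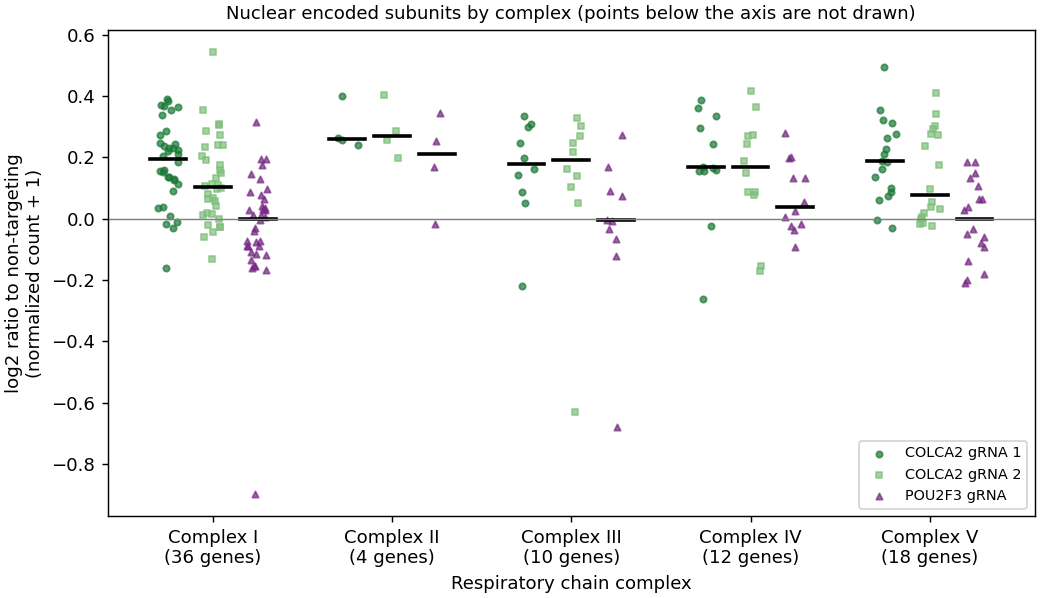
Log2 ratio to the non-targeting library (y axis) of the 80 nuclear encoded subunit genes, by respiratory chain complex (x axis), with 1 point per gene and library and a black bar at each median. The medians of COLCA2 gRNA 1 and gRNA 2 lie above 0 in all 5 complexes, and those of POU2F3 gRNA lie near 0 except in complex II. The points of 1 gene under both COLCA2 guides lie below the axis and are not drawn.

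In complex I, 28 of 36 nuclear genes were above the control with both COLCA2 guides, against 41% of all genes. With POU2F3 gRNA 18 of 36 were above it, against 49.6%. The median log2 ratios were 0.15 ± 0.06 (SD, n = 2 guide medians) for COLCA2 and 0.00 for POU2F3. The 7 core genes, most of which carry the flavin and iron-sulphur centres, had a COLCA2 median of 0.13 and the 29 accessory genes one of 0.15. NDUFA10, an accessory subunit of the membrane arm, had normalized counts of 1608, 1818, 1554 and 1248. It was lowest in the control, with a log2 ratio of 0.45 ± 0.13 (SD, n = 2) for COLCA2 (adjusted p = 0.0383 by edgeR) and 0.32 for POU2F3. NDUFA1, a small membrane-spanning accessory subunit, had 2235, 2191, 1961 and 1712. Its COLCA2 ratio was 0.37 ± 0.02 (adjusted p = 0.0419 by edgeR). NDUFS8, a core iron-sulphur subunit, had 2810, 2725, 2301 and 2198, with the COLCA2 guides above the other pair of libraries, and NDUFB2 and NDUFB3, accessory subunits of the membrane arm, had 2958, 2792, 2395 and 2256, and 1487, 1431, 1225 and 1252. NDUFB7, another membrane-arm accessory subunit, had 2250, 2254, 2065 and 2298, with the control the highest. NDUFS1, the largest core subunit, had 4564, 4944, 4688 and 4287.

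Complex II oxidises succinate in the citric acid cycle and passes the electrons to ubiquinone. It lay above the control with both COLCA2 guides in 4 of 4 genes, against 41% of all genes. The median log2 ratio for COLCA2 was 0.29 ± 0.01 (SD, n = 2 guide medians). SDHA, the flavoprotein, had normalized counts of 5082, 5139, 4836 and 4303. SDHB, the iron-sulphur subunit, had 2382, 2289, 1970 and 1994, with POU2F3 gRNA at the level of the control. The membrane anchors had 3218, 2968, 3097 and 2437 (SDHC) and 2185, 2410, 2169 and 1821 (SDHD). In SDHA, SDHC and SDHD the control was the lowest of the 4 libraries. The log2 ratios for POU2F3 gRNA were 0.17 for SDHA, -0.02 for SDHB, 0.35 for SDHC and 0.25 for SDHD. SDHC did not pass the edgeR test (adjusted p = 0.0565 for COLCA2 and 0.0962 for POU2F3).

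In complex III, 9 of 10 genes were above the control with both COLCA2 guides, against 41% of all genes. With POU2F3 gRNA 4 of 10 were above it, against 49.6%. The median log2 ratios were 0.19 ± 0.01 (SD, n = 2 guide medians) for COLCA2 and -0.01 for POU2F3. UQCRB, which binds near the ubiquinone site, had normalized counts of 4579, 4550, 4075 and 3627 (COLCA2 ratio 0.33 ± 0.01, SD, n = 2; adjusted p = 0.0399 by edgeR). UQCRC2, a core protein of the matrix side, differed in order, with 1996, 1918, 2104 and 1741, since POU2F3 gRNA was its highest library. UQCR10, a small subunit, had 2676, 2785, 2286 and 2394, and UQCRH, the hinge protein, had 6267, 6357, 5558 and 5278. UQCRHL is an intronless copy of UQCRH, so reads could be shared with its parent. It had 26, 17, 23 and 33 reads, and the counting interval of each ratio to the control included 1.

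Complex IV had 10 of 12 genes above the control with both COLCA2 guides, against 41% of all genes. With POU2F3 gRNA 8 of 12 were above it, against 49.6%. The median log2 ratios were 0.17 ± 0.00 (SD, n = 2 guide medians) for COLCA2 and 0.04 for POU2F3. COX5B, a subunit of the matrix side, had the largest rise among the nuclear members when ranked by the smaller change of the guides, with 3348, 3412, 3108 and 2558 normalized counts. Its log2 ratio was 0.40 ± 0.02 (SD, n = 2) for COLCA2 (adjusted p = 0.025 by edgeR) and 0.28 for POU2F3 (adjusted p = 0.126). COX7C had 8578, 8576, 7520 and 7242, with a COLCA2 ratio of 0.24 in both guides. COX7A2 had 205, 221, 240 and 246, the opposite order, and its intervals from counting included 1 for guide 1 (0.689 to 1.01) and guide 2 (0.74 to 1.09).

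Isoforms that replace the general subunit in particular tissues were at or near 0. COX4I2 (lung and hypoxic cells), COX6A2 (heart and skeletal muscle) and COX7B2 were listed at 0 in all 4 libraries. COX7A1, the heart and muscle form, had 1.04 normalized counts with guide 1 and 0 elsewhere, and COX8C had 1.68 with POU2F3 gRNA and 0 elsewhere. COX6B2, known mainly from testis, was detected at 30.1, 27, 35.3 and 30.6, and the counting interval of each ratio to the control included 1. The remaining member under the minimum was ATP5MGL, a copy of ATP5MG.

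For complex V, 14 of 18 genes were above the control with both COLCA2 guides, against 41% of all genes. With POU2F3 gRNA 9 of 18 were above it, against 49.6%. The median log2 ratios were 0.13 ± 0.08 (SD, n = 2 guide medians) for COLCA2 and 0.00 for POU2F3. ATP5MD, a small membrane subunit that supports ATP synthase dimers, had 3744, 3362, 2945 and 2657 normalized counts (COLCA2 ratio 0.42 ± 0.11, SD, n = 2; adjusted p = 0.0351 by edgeR). The catalytic subunit ATP5F1B had 27778, 26774, 24693 and 21716 (adjusted p = 0.0303), and ATP5F1E, of the central stalk, had 3931, 4206, 3468 and 3165 (adjusted p = 0.0382), both by edgeR for COLCA2. ATP5F1C, the gamma subunit of the same stalk, was flat, with 3993, 4014, 3941 and 4080. Besides ATP5F1C, lowest values were seen with POU2F3 gRNA for 3 other named genes. ATP5MC1, a gene for the c ring, had 2210, 1937, 1674 and 1939, and ATP5MG had 5228, 5182, 4626 and 5242. ATP5IF1, the inhibitor that blocks reverse ATP hydrolysis, had 3163, 3045, 2614 and 3004. The log2 ratios of these 3 genes for POU2F3 gRNA were -0.21, -0.18 and -0.20.

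The comparison of POU2F3 gRNA with the COLCA2 guides leaves the control out. POU2F3 gRNA was below both guides in 71 of 80 nuclear members, against 38.9% of all genes, and above both in 4, among them COX6B2, COX7A2 and UQCRC2, against 35.6%. Among the 75 members with a mean of at least 1000 it was below both guides in 69, against 45.6% of genes at that level. By complex the count over all 80 was 32 of 36, 3 of 4, 9 of 10, 10 of 12 and 17 of 18 for complexes I to V. The median difference was -0.17 on the log2 scale against guide 1 and -0.13 against guide 2, where all genes had -0.01 and -0.01. The differences were small for each gene. None of the 80 was at least 20% lower than both guides, against 6.46% of all genes, and 1 was at least 25% higher, against 6.56%. At least 2-fold higher was 1 of 80, against 0.442%, and 0 were 2-fold lower, against 0.924%. With edgeR, 0 of 80 were called, against 0.341% of all genes, and at an unadjusted p under 0.05 there were 10 lower and 1 higher, against 6.75% and 6.89% of all genes. The largest shared differences were those of NDUFS8 (-0.29 and -0.24), UQCR10 (-0.23 and -0.28), NDUFB3 (-0.28 and -0.22), NDUFB2 (-0.30 and -0.22) and ATP5IF1 (-0.28 and -0.22), each given against guide 1 and then guide 2.

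The guides also differed from each other. Guide 1 was above guide 2 in 57 of 80 nuclear members, against 48.8% of all genes, and in 12 of 13 mitochondrial members. At least 25% apart were UQCRHL and MT-ATP8, both higher with guide 1, against 8.42% of all genes, and 0 members were at least 20% lower, against 10.1%. In the POU2F3 library 6 of 13 mitochondrial members were below both guides, against 38.9% of all genes, 2 were above both, against 35.6%, and the median difference was -0.17 against guide 1 and 0.00 against guide 2. The summed count of mitochondrial members divided by that of nuclear members was 3.71 for guide 1, 3.46 for guide 2, 3.79 for POU2F3 gRNA and 3.63 for the control. The guides lay on either side of the control, and POU2F3 gRNA differed from the control by less than the guides differed from each other.

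**Figure D3:**
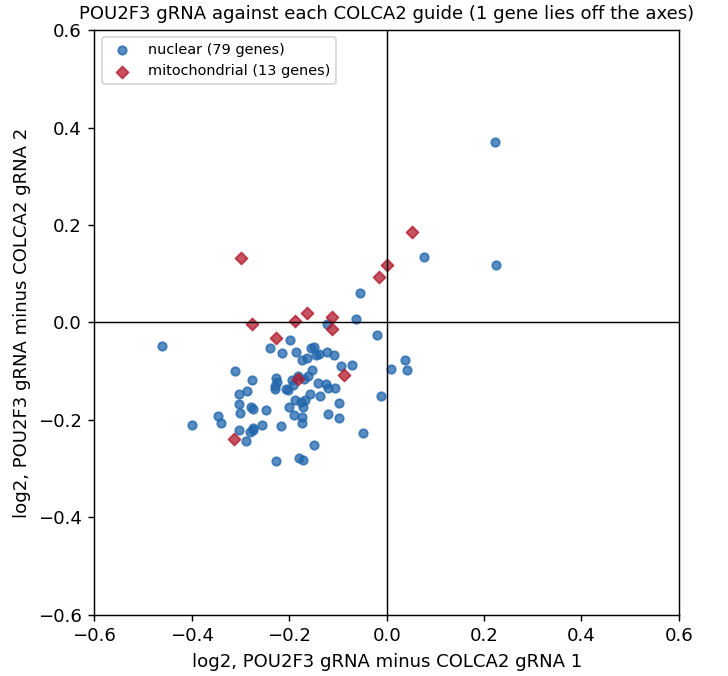
Log2 difference between POU2F3 gRNA and COLCA2 gRNA 1 (x axis) and between POU2F3 gRNA and COLCA2 gRNA 2 (y axis), with 1 point per nuclear (circles) or mitochondrial (diamonds) gene. Most nuclear points lie in the lower left corner, where 71 of 80 genes are below both guides, and the mitochondrial points spread around 0 on the y axis. Of the 80, 1 nuclear gene lies off the axes and is not drawn, and both axes share the POU2F3 gRNA library.

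Levels of different genes were compared per kb of coding sequence. This scale leaves out the length of untranslated regions, whose reads were counted too, so it overstates genes with long ones. The median mitochondrial member stood at 16.7 times the median nuclear member for guide 1, 15.1 times for guide 2, 16.5 times for POU2F3 gRNA and 16.5 times for the control. In the control the nuclear medians per coding kb were 4595 normalized counts for complex I, 3096 for complex II, 8083 for complex III, 9997 for complex IV and 9718 for complex V. The highest nuclear genes by their mean per coding kb were COX7C (42216) in complex IV, ATP5F1E (24134) in complex V, UQCRH (21483) in complex III, NDUFS5 (18797) in complex I and SDHC (5779) in complex II, and all but SDHC have short coding sequences of 153 to 318 bases. The lowest in complexes II to V, in that order, were SDHA (2430), UQCRHL (89.5), COX6B2 (116) and ATP5F1C (4497). Among mitochondrial genes MT-CO1 was the highest per coding kb (133956) and MT-ND5 the lowest (29331). In all 4 libraries MT-ND5 and MT-ND6 were the 2 lowest mitochondrial genes on this scale.

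**Figure D4:**
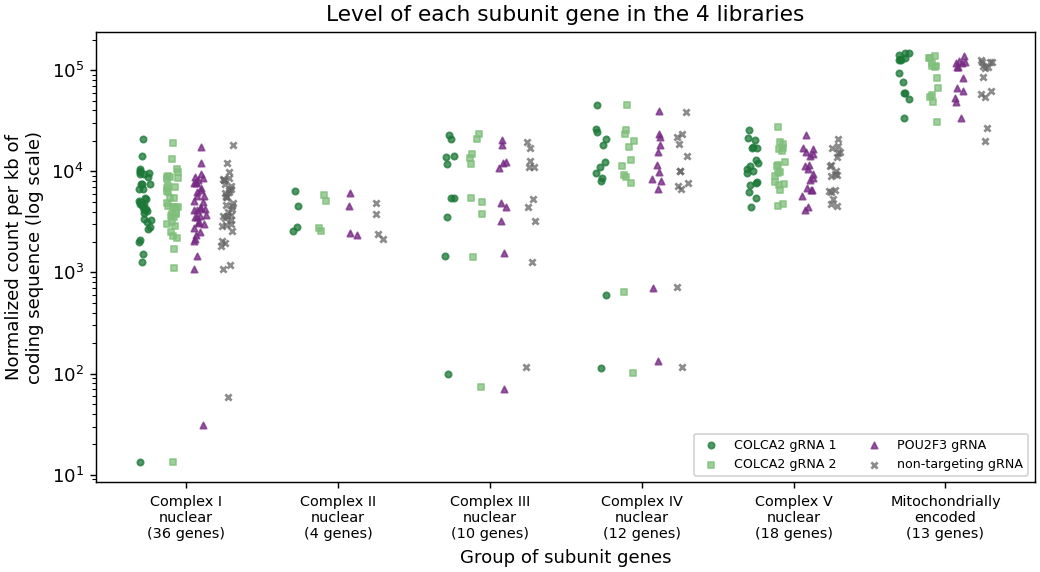
Normalized count per kb of coding sequence on a log scale (y axis) for each subunit gene, in 5 groups of nuclear genes by complex and 1 group of mitochondrially encoded genes (x axis), with 1 point per gene and library. Mitochondrially encoded genes lie at or above 20127 in every library, and UQCRHL and COX6B2 lie far below most other genes of their complexes.

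Promoters of nuclear subunit genes are known to carry sites for NRF1 and for ETS-family factors such as GABPA. RefSeq promoters (GRCh38.p14), each of 300 bases from 250 before to 50 after the start site, were available for 66 of the 80 nuclear members. On either strand of these 300 bases, GCATGCGC, the core of the NRF1 site, was found in 13 of the 66 (19.7%), against 3.27% of 27305 promoters of all genes, and CCGGAAG, an ETS-type motif, in 20 (30.3%), against 10.7%. Neither motif contains the other. The median COLCA2 log2 ratio was 0.13 for members with the NRF1 core and 0.18 for those without it, and 0.21 and 0.15 for members with and without the ETS motif. For POU2F3 gRNA these medians were -0.02 and 0.01, and 0.05 and -0.01. The 250 bases before the start are shown for 3 members, chosen after their values were seen, to display the motifs in place and not as evidence that a motif goes with a ratio. COX5B (chr2:97645812-97646061, plus strand) and SDHD (chr11:112086623-112086872, plus strand), which were higher with both COLCA2 guides, hold both motifs, and ATP5F1C (chr10:7787927-7788176, plus strand), which was flat, holds the NRF1 core without the ETS motif. Other members went the other way: NDUFB7 and ATP5MG are among the 20 with the ETS motif and had COLCA2 log2 ratios of -0.03 and -0.01, and NDUFA10 and NDUFS8, at 0.45 and 0.33, hold neither motif. Each sequence is the gene's sense strand with matches in capitals. In SDHD and ATP5F1C the NRF1 core reads on both strands and its 2 matches overlap, and in SDHD the ETS motif is on the opposite strand.

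COX5B: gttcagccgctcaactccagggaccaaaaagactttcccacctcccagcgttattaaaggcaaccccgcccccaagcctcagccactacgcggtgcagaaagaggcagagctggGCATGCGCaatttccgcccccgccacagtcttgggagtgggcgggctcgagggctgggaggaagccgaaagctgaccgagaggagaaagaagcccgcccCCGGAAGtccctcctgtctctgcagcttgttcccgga
SDHD: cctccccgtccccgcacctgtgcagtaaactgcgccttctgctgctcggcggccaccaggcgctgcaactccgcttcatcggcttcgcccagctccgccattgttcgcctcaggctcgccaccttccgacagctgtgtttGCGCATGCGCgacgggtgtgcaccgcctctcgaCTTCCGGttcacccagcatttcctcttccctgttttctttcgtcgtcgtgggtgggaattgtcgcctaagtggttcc
ATP5F1C: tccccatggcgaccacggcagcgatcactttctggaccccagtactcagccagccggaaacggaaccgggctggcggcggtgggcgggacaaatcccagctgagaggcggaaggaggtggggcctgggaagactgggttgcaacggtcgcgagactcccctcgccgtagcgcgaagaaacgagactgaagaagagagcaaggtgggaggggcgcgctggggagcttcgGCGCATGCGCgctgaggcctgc

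Other genes of the pathway were taken from lists of assembly factors, of factors for mitochondrial DNA and RNA and of regulators of mitochondrial biogenesis. Further lists held mitochondrial ribosomal proteins, and citric acid cycle enzymes together with genes of the pyruvate dehydrogenase. Of 50 assembly factors, 3 (6%) were at least 25% higher and 2 (4%) at least 20% lower with both COLCA2 guides, against 17.1% and 14.5% of all genes. With POU2F3 gRNA 3 (6%) were higher and 9 (18%) lower, against 22% and 18%, with median log2 ratios of 0.05 for COLCA2 and -0.10 for POU2F3. The same shares of all genes apply to the lists that follow. SCO2, a copper chaperone of complex IV, had normalized counts of 669, 608, 518 and 405, and NDUFAF1, which assembles complex I, had 474, 399, 427 and 300. In the other direction, SDHAF3, an assembly factor of complex II, had 293, 312, 278 and 408, and ACAD9, of complex I assembly, had 427, 480, 323 and 487.

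Of 34 factors for mitochondrial DNA and RNA past the minimum, 1 (2.94%) was higher and 4 (11.8%) were lower with both COLCA2 guides, against 17.1% and 14.5%. With POU2F3 gRNA 2 (5.88%) were higher and 3 (8.82%) lower, against 22% and 18% (medians 0.04 and -0.07). POLG, the mitochondrial DNA polymerase, had 2175, 1537, 2504 and 3457 and was highest in the control. TFB1M, which methylates mitochondrial ribosomal RNA, had 207, 194, 239 and 300, and TFB2M, the transcription initiation factor, had 1164, 1156, 883 and 915, with the COLCA2 guides above the other pair of libraries. Of 78 mitochondrial ribosomal proteins, 3 (3.85%) were higher and 0 lower with both COLCA2 guides, against 17.1% and 14.5%, and 1 (1.28%) was higher and 3 (3.85%) lower with POU2F3 gRNA, against 22% and 18%. Their medians were 0.09 and -0.09, and POU2F3 gRNA lay below the mean of the COLCA2 guides in 73 of 78, against 50.6% of all genes. MRPL33 had 1189, 1222, 1027 and 778, and MRPL22 had 1294, 1236, 1044 and 1601.

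Regulators of biogenesis gave the largest single differences in these lists. Of 21 past the minimum, 3 (14.3%) were at least 25% higher and 3 (14.3%) at least 20% lower with both COLCA2 guides, against 17.1% and 14.5%. With POU2F3 gRNA 4 (19%) were higher and 3 (14.3%) lower, against 22% and 18% (medians -0.04 and -0.05). The counts were near those of all genes. PPARGC1A, the co-activator PGC-1α that drives transcription of respiratory genes, had 856, 1101, 989 and 383. The control was the lowest library, with log2 ratios of 1.34 ± 0.26 (SD, n = 2) for COLCA2 and 1.37 for POU2F3. EPAS1, which encodes the hypoxia-inducible factor HIF-2α, had 720, 746, 606 and 227, with ratios of 1.68 ± 0.04 and 1.41. ESRRG, a nuclear receptor that partners PGC-1α, was low throughout and highest in the control, with 40.4, 27, 37.8 and 78.3, and MYC had 5952, 5188, 6148 and 8152. The list of citric acid cycle and pyruvate dehydrogenase genes held 19. Of these, 2 (10.5%) were higher and 0 lower with both COLCA2 guides, against 17.1% and 14.5%. With POU2F3 gRNA 1 (5.26%) was higher and 1 (5.26%) lower, against 22% and 18% (medians 0.12 and 0.13). OGDH, of the 2-oxoglutarate dehydrogenase, had 6731, 6621, 5979 and 4521, whereas DLAT, of the pyruvate dehydrogenase, had 1686, 1771, 1638 and 2144. IDH2, the mitochondrial isocitrate dehydrogenase, had 5114, 5083, 5463 and 6244.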

How the data were processed

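Poly(A) RNA from 4 NCI-H1048 libraries was compared. Per the file headers, the authors deposited a linear signal, normalized counts. Salmon, DESeq2 and hg38 are named in the submitters' processing notes without a role or version, and the strand setting is not given in the sources used here. All values (100%) were, within 0.01, whole reads divided by 1 factor per library. Rows of a symbol were summed, genes with a mean of at least 20 were kept and log2 ratios used a pseudocount of 1. With 1 library in the control group there was no test in the main comparison, and the SD covers the 2 COLCA2 guides, whose libraries are not stated to come from separate cultures.

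As an alternative, edgeR 4.0.16 (quasi-likelihood test, TMM, Benjamini-Hochberg over 14940 genes, threshold 0.05) was applied to these reads with 3 groups in 1 fit. The COLCA2 guides give its 1 residual degree of freedom, so tests against POU2F3 or the control compare libraries, not conditions. The script was tested on simulated data. Other alternatives changed the pseudocount, minimum, scaling, row choice, fold and guides. Intervals are exact 95% binomial and cover counting error only. Gene positions and coding lengths (the longest principal coding sequence) came from GENCODE release 29 (GRCh38), and promoters from RefSeq.

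Genes named are all mitochondrial members, tissue-restricted isoforms, complex II genes, the 5 largest rises and falls of nuclear members per comparison, the highest and lowest level per length in each complex and the 2 largest rises and falls of each list. The 2 further edgeR calls, ATP5F1B and ATP5F1E, and the counts of any difference were chosen after values were seen, and not all genes of the rule are printed. Some genes that enter the counts are not reported here by name. Members and lists were chosen with earlier results of these data known.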

Additional observations from a re-analysis of the deposited data

How the results depend on the processing

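No paired analysis was possible because the control and POU2F3 groups hold 1 library each and share fewer than 2 replicate numbers with the COLCA2 group. The counts of any difference were added after the data had been seen. Some of the 197 values recomputed under alternatives could not change. A minimum does not alter the ratio of a single gene, and a pseudocount does not alter the sign of a ratio. Of the 197, 174 stayed within their spread or within 1.5 times the main count. Medians near 0 changed sign within that spread: with equal totals, or equal totals outside the mitochondrial genome, the POU2F3 medians against the control became -0.026 and -0.023 (nuclear) and -0.019 and -0.016 (mitochondrial), and the mitochondrial difference of POU2F3 from COLCA2 became 0.0021 from -0.084 without COLCA2 gRNA 1. The nuclear COLCA2 median of 0.16 became 0.094 with equal totals and 0.099 with equal totals outside the mitochondrial genome. For nuclear genes at least 25% higher with COLCA2, the 5 became 0 with either equal-total scaling and with folds of 1.5 and 2, and ran from 8 to 14 with 1 guide left out (14 without COLCA2 gRNA 2, 8 without COLCA2 gRNA 1). Equal totals also moved the share of higher genes among all genes past the threshold for COLCA2 from 54% to 43.9%. The POU2F3 count of 1 higher became 2 with no minimum and with TMM, and 0 with either equal-total scaling, folds of 1.5 and 2, and edgeR. The COLCA2 count of 1 lower became 2 with no minimum and 0 with a minimum of 100, and ran from 1 to 2 with 1 guide left out; the POU2F3 count of 2 lower became 0 with a minimum of 100, a fold of 2, and edgeR. A minimum of 100 tests fewer genes, and a larger fold can only lower a count. Without a minimum, COX8C (log2 ratio 1.42 with POU2F3 gRNA) and ATP5MGL (-0.59 and -0.63 with guides 1 and 2) were counted too. The cause of the other changes was not tested. The mitochondrial COLCA2 median of 0.12 ran from 0.084 to 0.252 with 1 guide left out (0.25 without COLCA2 gRNA 2), and the mean over these genes for POU2F3 was 0.154 where the median was 0.02. Depth limits UQCRHL and COX6B2, which had fewer than 100 reads in each library.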

Other observations

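Relatives of the subunit genes that the symbol rule leaves out gave the following values. NDUFA4L2, a paralogue of a complex IV subunit that is known as a hypoxia-induced gene, had normalized counts of 47.7 for guide 1, 69.4 for guide 2, 63.8 for POU2F3 gRNA and 195 for the control, with log2 ratios of -1.74 ± 0.38 (SD, n = 2) for COLCA2 and -1.60 for POU2F3. The control was the highest library for this gene, while EPAS1, the gene of a hypoxia-inducible factor, was lowest there. NDUFAB1, the acyl carrier protein that is also a complex I subunit, had 1174, 1236, 1038 and 1314. COX7A2L, a factor of respiratory supercomplexes, had 1893, 1959, 1549 and 1641, with POU2F3 gRNA below both COLCA2 guides as in most nuclear subunit genes.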
